A study of Mus musculus with 6 samples.

Results

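The CCAAT/enhancer-binding proteins (C/EBPs) are a family of basic leucine zipper (bZIP) transcription factors, and together with the nuclear receptor PPARγ they form the core circuit of fat cell differentiation. Their mRNAs were compared here between the gastrocnemius muscles of 3 Nogo-/- mice and 3 Nogo+/+ mice. The 7 genes examined were Cebpa, Cebpb, Cebpd, Cebpg and Cebpz, Pparg, and Rxra, the gene of the partner with which PPARγ binds DNA. They were taken by name, and all 7 were among the 12353 genes of the deposited table. Nogo-/- mice lack Rtn4, the gene of all Nogo isoforms, and Nogo+/+ mice are the wild type. All mice lived under a 12 h light-dark cycle. Their age and the hour at which muscle was taken are not given in the sources used here. Each library is polyadenylated RNA of 1 whole muscle sample, and each value is an FPKM, the number of fragments per kilobase of transcript, scaled to the mapped fragments of the library. Libraries are called by the sample numbers of the table, Samples 4 to 6 for Nogo-/- mice and Samples 1 to 3 for Nogo+/+ mice, and the numbers pair no mouse with another.

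As background, C/EBPβ and C/EBPδ are induced first when cultured mouse preadipocytes are given cAMP-raising agents and glucocorticoid. They then switch on Cebpa and Pparg, which maintain one another and drive the genes of the mature fat cell. C/EBPγ has the bZIP domain but lacks a strong activation domain of its own, and it works largely through the partners it binds. Cebpz carries the family's name for its binding to CCAAT boxes but encodes no bZIP protein. In skeletal muscle these factors are also known outside fat cells, C/EBPβ as a factor of muscle stem cells and of atrophy genes, and RXRα as the partner of several nuclear receptors in the fiber.

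The knockout was seen in the RNA of each mouse. Rtn4 was at 0.423, 0.312 and 0.368 FPKM in Nogo-/- muscles, against 414, 429 and 425 FPKM in Nogo+/+ muscles. Muscle genes such as Acta1 and Ckm were among the most abundant, at 5441 to 5804 FPKM and 6168 to 6573 FPKM in Nogo-/- muscles, against 5740 to 6028 FPKM and 6524 to 6678 FPKM in Nogo+/+ muscles. The steps between low FPKM values gave a depth of about 13752000 to 14448000 fragments in Nogo-/- libraries and 13483000 to 14422000 in Nogo+/+ libraries. Differences were tested with limma on log2(FPKM + 1) after quantile normalization, with Benjamini-Hochberg adjustment over all 12353 genes and a threshold of 0.05. By this test 573 genes changed (4.64%), of which 233 were higher (1.89%) and 340 lower (2.75%) in Nogo-/- muscles. Higher genes thus made up 40.7% of the calls, but 56.3% without quantile normalization (302 higher and 234 lower). Leaving out Sample 1, 2, 3, 4, 5 or 6 gave 301, 188, 192, 378, 434 and 420 changed genes. Sample 6, a Nogo-/- library, stood apart in 8 markers of skin keratinocytes. Their summed FPKM was 228 in Sample 6 and 3.91 and 10.3 in the other Nogo-/- libraries, against 2.93 to 14.2 in Nogo+/+ libraries, and none of the 8 passed in limma (0 at an unadjusted p under 0.05). For this reason, the log2 differences of the 7 genes are also given without Sample 6.

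Of the 7 genes, Cebpd and Cebpb were higher and Rxra was lower in Nogo-/- muscles, whereas Cebpa, Pparg, Cebpg and Cebpz did not pass the test. The median log2 difference of the 7 was 0.50, beside −0.0067 over all genes. The 7 were chosen with earlier results of these data known, so this median is a description and not a test. The FPKM of Nogo-/- and Nogo+/+ mice did not overlap for 5 of the 7, which was also true of 25.9% of all genes. With 3 mice in each group, an exact two-sided permutation test of single FPKM values cannot go below p = 0.1, which it gave for each of these 5.

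**Figure D1:**
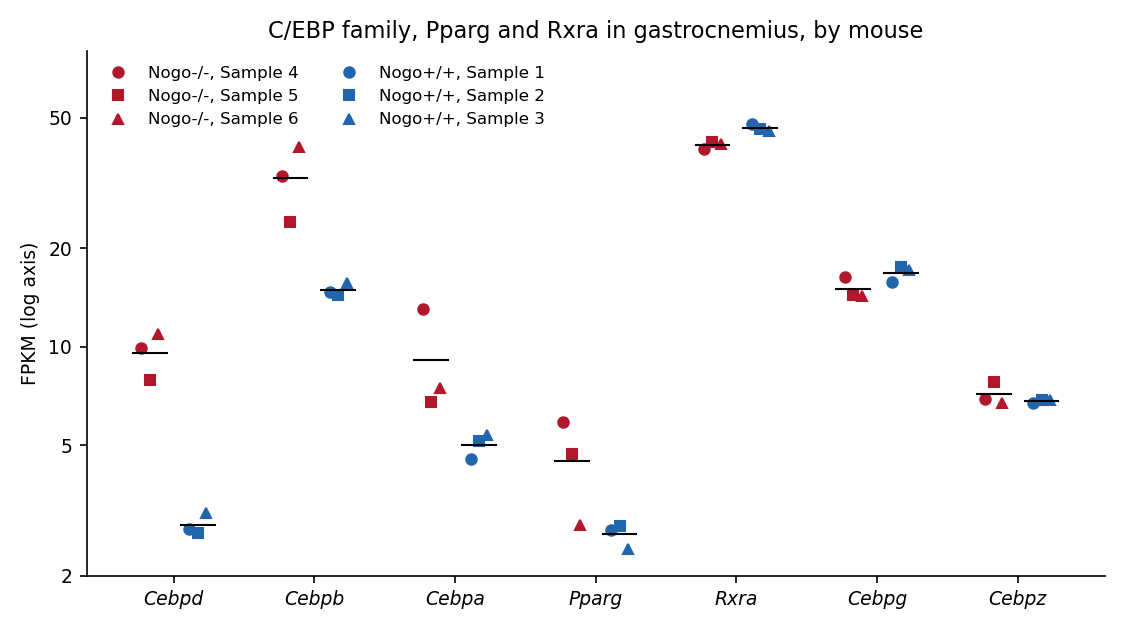
FPKM of the 7 genes in each mouse, on a log axis, with Nogo-/- mice (red) left of Nogo+/+ mice (blue) and a line at each group's mean (n = 3 each). The Nogo-/- points of Cebpd lie at 7.88 to 10.9 and those of Cebpb at 24.0 to 40.6, apart from the Nogo+/+ points, whereas the lowest Nogo-/- point of Pparg, Sample 6 at 2.85, lies next to the highest Nogo+/+ point at 2.84.

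Cebpd, an early factor of the circuit, had the largest difference of the 7. It lies on chromosome 16 from 15887286 to 15891031 of GRCm38, on the plus strand. Its FPKM was 9.91, 7.88 and 10.9 in Nogo-/- Samples 4, 5 and 6, against 2.78, 2.71 and 3.10 in Nogo+/+ Samples 1, 2 and 3. The lowest Nogo-/- mouse was thus well above the highest Nogo+/+ mouse. The means were 9.58 ± 1.55 in Nogo-/- and 2.86 ± 0.21 in Nogo+/+ muscles (SD, n = 3 each), a ratio of 3.34. The log2 difference was 1.40 (standard error 0.12, 95% interval 1.13 to 1.68, adjusted p = 5.1e-04 from limma). Cebpd passed under all 10 alternatives, with log2 differences of 1.29 to 1.65, and without Sample 6 it was at 1.29.

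Cebpb, the other early factor, was the most abundant C/EBP mRNA in Nogo-/- muscles by FPKM. It is a gene with a single annotated transcript, on chromosome 2 from 167688915 to 167690418 of GRCm38, plus strand. Its FPKM was 33.3, 24.0 and 40.6 in Nogo-/- Samples 4, 5 and 6, against 14.7, 14.4 and 15.6 in Nogo+/+ Samples 1, 2 and 3. The groups did not overlap, and the Nogo-/- mice differed among themselves far more than the Nogo+/+ mice did. The means were 32.6 ± 8.32 in Nogo-/- and 14.9 ± 0.670 in Nogo+/+ muscles (SD, n = 3 each), a ratio of 2.19. The log2 difference was 1.01 (standard error 0.17, 95% interval 0.63 to 1.39, adjusted p = 0.0141 from limma). With the depth above, these values stand for about 694, 522 and 840 fragments in Nogo-/- libraries, against 306, 291 and 339 in Nogo+/+ libraries. The call was lost without Sample 1, 2, 3 or 4 (adjusted p = 0.0575, 0.0756, 0.0595 and 0.0543 from limma), with log2 differences of 0.98 to 1.04. It remained without Sample 5 and without Sample 6 (adjusted p = 0.0014 and 0.0157 from limma), with a log2 difference of 0.82 without Sample 6. The mRNA does not tell apart the long and short proteins made from Cebpb by choice of start codon.

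The 250 bases before the start of Cebpb are shown because cAMP, which signals through factors that bind an element with the core TGACG, is a classical inducer of this gene. They span chr2:167688665-167688914 of GRCm38.p6 on the plus strand, from RefSeq. Capitals mark each match to this core and to the GC box GGGCGG, on either strand, so that CGTCA is a match on the minus strand.
Cebpb: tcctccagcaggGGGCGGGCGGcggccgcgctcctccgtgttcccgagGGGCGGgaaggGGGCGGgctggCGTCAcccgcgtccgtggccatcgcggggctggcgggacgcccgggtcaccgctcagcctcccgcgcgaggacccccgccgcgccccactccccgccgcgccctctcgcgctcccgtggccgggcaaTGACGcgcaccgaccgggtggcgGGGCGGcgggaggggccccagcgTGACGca
The core was found 3 times, with the first base at −180, −53 and −7, counted from −1 just before the start. It was found at least once in 17.8% of 32851 mouse promoter windows of the same length. GC boxes were found 5 times, 2 of them overlapping, and at least once in 32.7% of windows. The window of Cebpb is 81.6% G or C, whereas these shares are over windows of any make-up, so enrichment was not tested. Matches to the STAT site TTCNNNGAA (7.0% of windows), the E-box CACGTG (6.0%) and the C/EBP site TTGCNNAA (9.6%) were looked for on both strands and not found in these 250 bases. The promoter table held 5 of the 7 genes, all but Cebpd and Cebpz.

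The strand used in counting is not given in the sources used here, although the library kit keeps it, so reads of antisense neighbors may not be fully told apart. Tmem189 overlaps Cebpb on the opposite strand and was at 14.8, 13.9 and 15.8 FPKM in Nogo-/- muscles, against 10.9, 12.8 and 13.9 FPKM in Nogo+/+ muscles (log2 difference 0.19, adjusted p = 0.325 from limma). Spidr overlaps Cebpd on the opposite strand and is not among the genes of the table. The same holds for Gm45091 at Cebpa, Gm44079 at Pparg and Gm45095 at Cebpg. Gm44836 and Gm45094 overlap Cebpg on its own strand and are likewise not among the genes of the table. Cebpzos, which overlaps Cebpz, had a log2 difference of 0.02 (adjusted p = 0.857 from limma).

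Cebpa and Pparg, the late factors, had higher means in Nogo-/- muscles, but neither passed the test. Cebpa lies on chromosome 7 from 35119293 to 35121928 of GRCm38, plus strand. Its FPKM was 13.1, 6.79 and 7.48 in Nogo-/- Samples 4, 5 and 6, against 4.54, 5.17 and 5.37 in Nogo+/+ Samples 1, 2 and 3. All 3 Nogo-/- mice were above all Nogo+/+ mice, and Sample 4 was far above the other 5. The means were 9.11 ± 3.44 in Nogo-/- and 5.02 ± 0.434 in Nogo+/+ muscles (SD, n = 3 each), with a log2 difference of 0.66 (standard error 0.19, 95% interval 0.22 to 1.11, adjusted p = 0.103 from limma). Cebpa passed under none of the 10 alternatives (adjusted p = 0.0620 to 0.243 from limma). Without Sample 4, the log2 difference was 0.41 (adjusted p = 0.0859), and without Sample 6 it was 0.74 (adjusted p = 0.123).

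Pparg lies on chromosome 6 from 115360951 to 115490399 of GRCm38, plus strand. Its FPKM was 5.88, 4.69 and 2.85 in Nogo-/- Samples 4, 5 and 6, against 2.76, 2.84 and 2.42 in Nogo+/+ Samples 1, 2 and 3. Samples 4 and 5 were above the wild type, whereas Sample 6 was level with it. The means were 4.47 ± 1.53 in Nogo-/- and 2.67 ± 0.225 in Nogo+/+ muscles (SD, n = 3 each), with a log2 difference of 0.50 (standard error 0.17, 95% interval 0.11 to 0.90, adjusted p = 0.154 from limma). Without Sample 6 the log2 difference was 0.72 and Pparg passed (adjusted p = 0.0157 from limma). At its low level, the longest of its 7 annotated transcripts would give 83 to 173 fragments in Nogo-/- and 74 to 81 in Nogo+/+ libraries.

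Pparg has several starts, and the one used in fat cells lies downstream of those used widely. FPKM per gene do not tell the starts apart. The 250 bases before the most downstream of the 3 starts in the RefSeq table are shown because C/EBPs are known to act on Pparg through its promoter. They span chr6:115421816-115422065 of GRCm38.p6, plus strand, and capitals mark matches to the C/EBP site TTGCNNAA on either strand.
Pparg: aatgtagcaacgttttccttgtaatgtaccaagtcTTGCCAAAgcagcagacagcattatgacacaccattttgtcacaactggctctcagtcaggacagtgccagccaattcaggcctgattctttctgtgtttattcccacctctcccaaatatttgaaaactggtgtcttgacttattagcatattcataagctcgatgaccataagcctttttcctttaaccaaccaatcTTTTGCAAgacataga
The site was found 2 times, at −215 and −16, and at neither of the other starts of Pparg nor in the windows of Cebpa, Cebpb, Cebpg and Rxra. As given above, 9.6% of all promoter windows hold it.

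**Figure D2:**
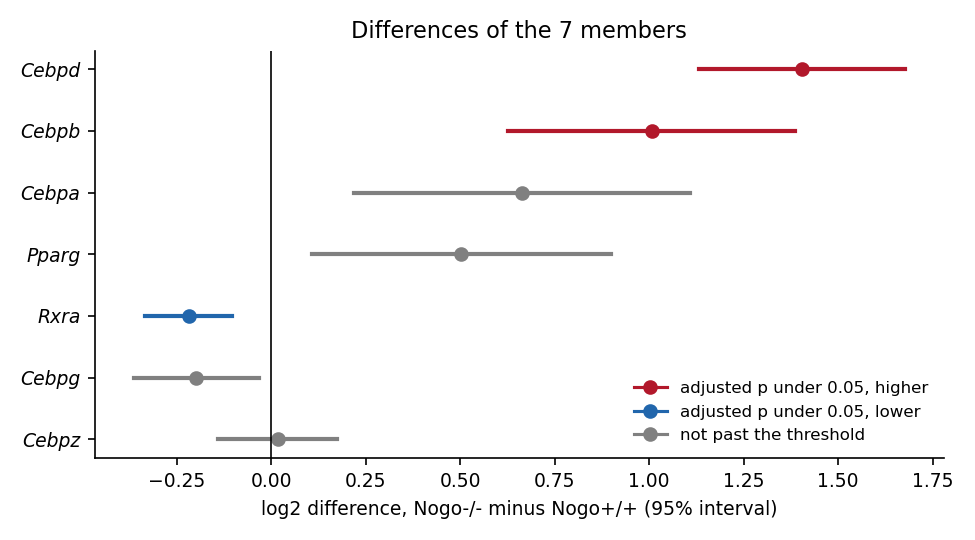
Log2 difference of the 7 genes, Nogo-/- minus Nogo+/+, with its 95% interval from limma (n = 3 mice each) and genes down the page. Cebpd at 1.40 and Cebpb at 1.01 are higher (red) and Rxra at −0.22 is lower (blue), whereas the gray genes did not pass the threshold after adjustment over all genes.

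Rxra, the receptor partner, was slightly lower in Nogo-/- muscles, and the call rested on the settings. The gene lies on chromosome 2 from 27676440 to 27762957 of GRCm38, plus strand. Its FPKM was 40.0, 42.1 and 41.4 in Nogo-/- muscles, against 47.8, 46.3 and 45.5 in Nogo+/+ muscles. The groups did not overlap, and the spread within each was small. The means were 41.2 ± 1.10 in Nogo-/- and 46.5 ± 1.15 in Nogo+/+ muscles (SD, n = 3 each), a ratio of 0.885. The log2 difference was −0.22 (standard error 0.05, 95% interval −0.33 to −0.10, adjusted p = 0.0483 from limma). Rxra did not pass without quantile normalization (adjusted p = 0.0931), without the mean-variance trend (0.105) or without any single one of Samples 1 to 6 (0.0677 to 0.170). Without Sample 6 the log2 difference was −0.24.

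Cebpg and Cebpz did not pass the test. Cebpg, on chromosome 7 from 35046422 to 35056573, minus strand, is a neighbor of Cebpa. Its FPKM was 16.3, 14.4 and 14.3 in Nogo-/- muscles, against 15.7, 17.5 and 17.1 in Nogo+/+ muscles. The groups overlapped, with a log2 difference of −0.20 (95% interval −0.36 to −0.03, adjusted p = 0.172 from limma), and one of −0.18 without Sample 6. Cebpz, on chromosome 17 from 78919006 to 78937066, minus strand, was the gene of the 7 nearest to no difference. Its FPKM was 6.94, 7.82 and 6.72 in Nogo-/- muscles, against 6.75, 6.86 and 6.88 in Nogo+/+ muscles. The log2 difference was 0.02 (95% interval −0.14 to 0.18, adjusted p = 0.921 from limma), and its sign turned without Sample 5 (−0.03) but not without Sample 6 (0.03).

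Set against one another within each mouse, the 4 bZIP members differed in make-up as well as in amount. FPKM are scaled to transcript length, so the 4 are set side by side, but such levels also depend on how fragments are assigned to transcripts. Cebpg has 4 annotated transcripts of 399 to 4709 bases, whereas Cebpb has 1 of 1504 bases. Their summed FPKM was 72.6, 53.1 and 73.3 in Nogo-/- Samples 4, 5 and 6, against 37.7, 39.8 and 41.2 in Nogo+/+ Samples 1, 2 and 3. By FPKM, Cebpg was the most abundant of the 4 in Nogo+/+ muscles, at 15.7 to 17.5 against 14.4 to 15.6 for Cebpb. In Nogo-/- muscles the most abundant by FPKM was Cebpb except for the limits just given. Cebpb and Cebpd together made up 63.3% ± 6.07 of the sum in Nogo-/- and 44.9% ± 1.76 in Nogo+/+ muscles (SD, n = 3 each). The share of Cebpg was 23.0% ± 3.82 in Nogo-/- and 42.4% ± 1.44 in Nogo+/+ muscles, and that of Cebpa was 13.7% ± 3.98 in Nogo-/- and 12.7% ± 0.568 in Nogo+/+ muscles. The shares of Cebpa overlapped between the groups and those of Cebpb, Cebpd and Cebpg did not. The shares are parts of 1 sum, so higher Cebpb and Cebpd alone lower the share of Cebpg. The FPKM of Cebpg itself overlapped between the groups and did not pass (adjusted p = 0.172 from limma). These shares were worked out after the levels were seen, and their differences were not tested.

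**Figure D3:**
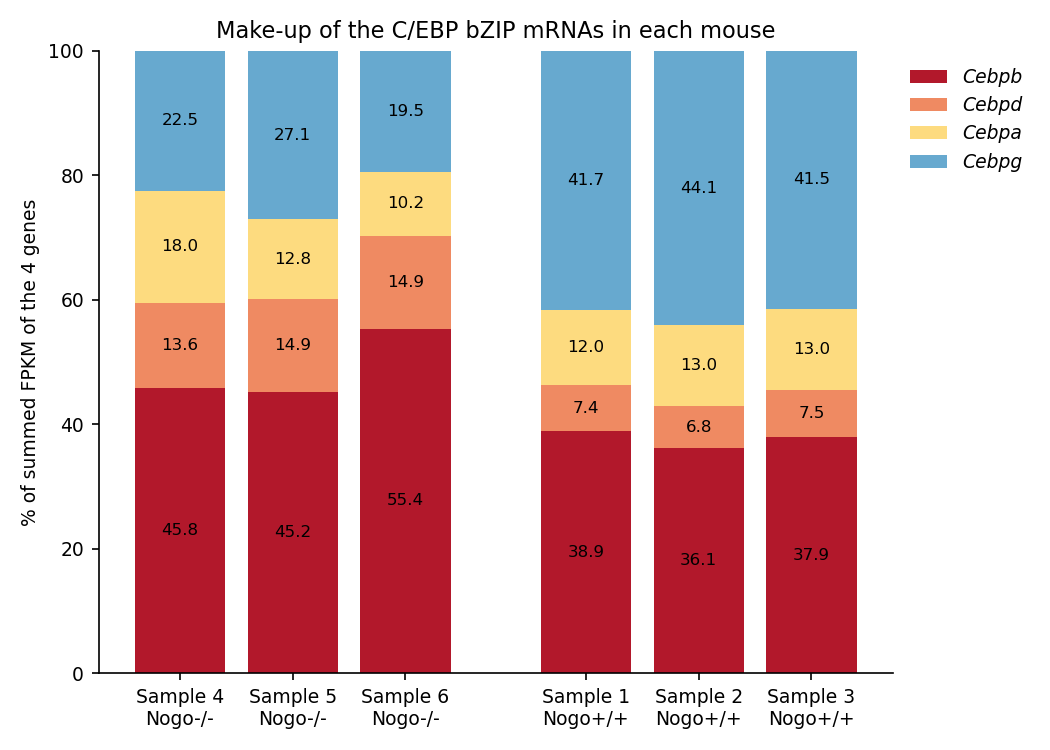
Share of each of 4 C/EBP mRNAs in their summed FPKM, 1 bar per mouse, with the 3 Nogo-/- mice on the left and the 3 Nogo+/+ mice on the right. The share of Cebpg is 19.5% to 27.1% in Nogo-/- mice and 41.5% to 44.1% in Nogo+/+ mice, and that of Cebpb is 45.2% to 55.4% in Nogo-/- mice and 36.1% to 38.9% in Nogo+/+ mice. Shares depend on one another, and the FPKM of Cebpg itself overlapped between the groups.

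The early factors stood higher relative to the late factors in Nogo-/- muscles when Cebpd was the early factor, but not clearly when it was Cebpb. The ratio of Cebpd to Cebpa was 0.758 to 1.46 in Nogo-/- mice and 0.523 to 0.613 in Nogo+/+ mice. The ratio of Cebpd to Pparg was 1.68 to 3.84 in Nogo-/- mice and 0.952 to 1.28 in Nogo+/+ mice. By contrast, the ratio of Cebpb to Cebpa was 2.55 to 5.43 in Nogo-/- mice and 2.78 to 3.24 in Nogo+/+ mice, so that the groups overlapped. That of Cebpb to Pparg also overlapped, at 5.12 to 14.3 in Nogo-/- mice and 5.05 to 6.48 in Nogo+/+ mice. Rxra was well above Pparg in each mouse, at 6.79 to 14.6 times its FPKM in Nogo-/- and 16.3 to 18.8 times in Nogo+/+ mice. These ratios were likewise not tested.

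The order of the 3 Nogo-/- mice was not the same for early and late factors. Cebpb and Cebpd were both highest in Sample 6, then Sample 4, then Sample 5. With 3 mice few orders are possible, so a shared order is given as a description here and below. Pparg ran from Sample 4 to Sample 5 to Sample 6, and Cebpa from Sample 4 to Sample 6 to Sample 5. Each of these genes was higher in Sample 4 than in Sample 5, so the orders differed only in the place of Sample 6. That library also had the high skin keratinocyte markers, whose part in its Cebpb and Cebpd was not tested. All 8 measured fat cell markers had the order of Pparg, as did all 7 leukocyte and macrophage markers, 4 of 5 fibroblast markers and 3 of 5 endothelial markers. The summed FPKM of the fat cell markers was 902, 573 and 465 in Nogo-/- Samples 4, 5 and 6, against 404, 480 and 488 in Nogo+/+ Samples 1, 2 and 3. On the log2 scale, their mean was 5.21, 4.57 and 4.08 in Nogo-/- muscles, against 3.73, 4.10 and 4.08 in Nogo+/+ muscles. Sample 6 thus had the fat marker level of the wild type together with the highest Cebpb and Cebpd of all. Its Cebpa, at 7.48 FPKM, was also above the 4.54 to 5.37 FPKM of Nogo+/+ mice, whereas its Pparg was level with theirs. None of the 8 fat cell markers passed in limma, with 4 at an unadjusted p under 0.05 (20.5% of all genes). None was at 0 in any library, and their part in the levels of Cebpa and Pparg was not tested. In whole muscle, more cells of a type and more RNA per cell cannot be told apart.

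**Figure D4:**
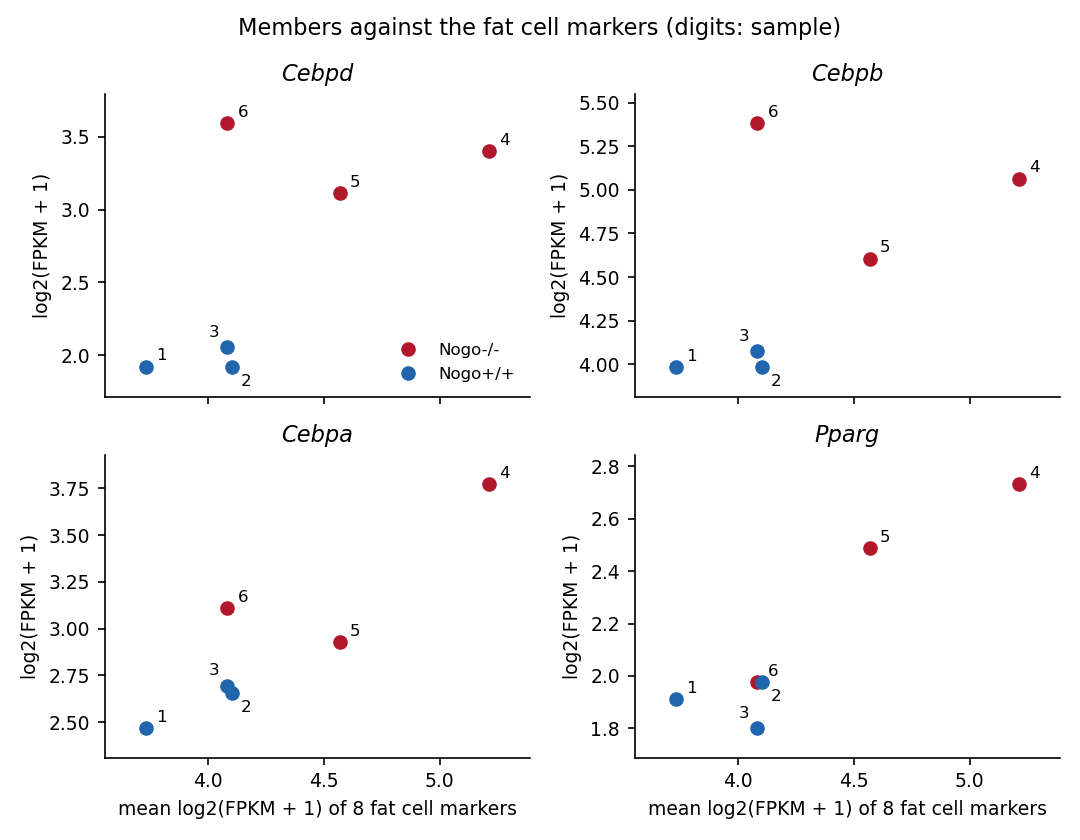
Normalized log2(FPKM + 1) of Cebpd, Cebpb, Cebpa and Pparg in each library against the mean log2(FPKM + 1) of 8 fat cell markers, with Nogo-/- libraries in red and Nogo+/+ libraries in blue. Sample 6 shares the marker level of Sample 3, at 4.08 in each, but lies at the top for Cebpd and Cebpb. It lies above the Nogo+/+ libraries for Cebpa and beside them for Pparg. Sample 6 is also the library with the high skin keratinocyte markers.

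Divided by Plin1, a coat protein of the fat cell's lipid droplet, Pparg was at 0.298, 0.353 and 0.342 in Nogo-/- muscles, against 0.507, 0.392 and 0.327 in Nogo+/+ muscles. Likewise Cebpa was at 0.663, 0.512 and 0.898 in Nogo-/- muscles, against 0.834, 0.712 and 0.727 in Nogo+/+ muscles. Scaled to this gene, the values of each late factor overlapped between the groups. Cebpd over Plin1 was at 0.502, 0.594 and 1.31 in Nogo-/- muscles, against 0.511, 0.373 and 0.420 in Nogo+/+ muscles, and these groups overlapped as well. So did those of Cebpb over Plin1, at 1.69, 1.81 and 4.88 in Nogo-/- muscles, against 2.70, 1.98 and 2.12 in Nogo+/+ muscles. Plin1 was chosen after its values were seen, and no test was made of these ratios. They hold for Plin1 only, whose own log2 difference was 0.84. Those of the fat cell markers ran from 0.23 for Fabp4 to 1.18 for Cidec, so the overlap depends on the marker taken.

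Markers of other cells were measured beside the family. The 7 measured leukocyte and macrophage markers, of cells that use Cebpa and Cebpb, summed to 71.8, 56.4 and 44.0 FPKM in Nogo-/- muscles, against 77.3, 58.6 and 48.5 FPKM in Nogo+/+ muscles, and none of them passed in limma, with 0 also at an unadjusted p under 0.05. The 5 fibroblast markers summed to 470, 390 and 322 FPKM in Nogo-/- muscles, against 382, 361 and 367 FPKM in Nogo+/+ muscles, also with none past the test and 0 at an unadjusted p under 0.05. All 5 endothelial markers passed as lower in Nogo-/- muscles, beside 2.75% of all genes. Their sum was 65.5 to 78.6 FPKM in Nogo-/- muscles, against 95.8 to 106 FPKM in Nogo+/+ muscles. Of these 5, Kdr held without each library, whereas Pecam1, Cdh5, Tek and Emcn were each lost in 4 or 5 of the 6 fits that left out a library, so that each of the 6 libraries ended at least 1 of these calls (adjusted p up to 0.139 from limma). Pecam1, Cdh5 and Tek were also lost without the mean-variance trend (adjusted p = 0.0526 to 0.0556), and Pecam1 and Tek without quantile normalization (0.0549 and 0.0804). The part of these cells in the results was not tested.

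Among 15 early regulators of fat cell differentiation, a list that holds Cebpb and Cebpd, 5 were higher, none was lower and 10 did not pass. Over all genes, 1.89% were higher and 2.75% lower. The median log2 difference of the list was −0.02, beside −0.0067 over all genes. The other 3 that rose were Krüppel-like factors. Klf4, which activates Cebpb in cultured mouse preadipocytes, was at 12.6, 8.59 and 13.9 FPKM in Nogo-/- muscles, against 7.07, 5.67 and 5.58 FPKM in Nogo+/+ muscles (log2 difference 0.78, adjusted p = 0.0378 from limma). It followed the order of Cebpb and Cebpd among the Nogo-/- mice. Klf9 and Klf15, which act with C/EBPs on Pparg, had log2 differences of 0.47 and 0.37 (adjusted p = 0.0124 and 0.0216 from limma) and were highest in Sample 5. Klf4 was lost without the mean-variance trend (adjusted p = 0.0761 from limma) and without Sample 1, 2, 3, 4 or 6 (0.0672 to 0.148), Klf9 without Sample 3 (0.0618) and Klf15 without Sample 2, 3, 5 or 6 (0.0557 to 0.103). Srebf1, a factor of lipid synthesis, and Stat5b had log2 differences of −0.33 and −0.28 (adjusted p = 0.0603 and 0.0688 from limma).

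Of the 6 PPAR and RXR receptors, Rxra and Rxrg were lower, beside 2.75% of all genes, and none was higher. The median log2 difference of the list was −0.07. Rxrg, the RXR of muscle and some other tissues, was at 37.7, 37.9 and 37.2 FPKM in Nogo-/- muscles, against 43.7, 45.4 and 47.6 FPKM in Nogo+/+ muscles (log2 difference −0.33, adjusted p = 0.0101 from limma). Its call was lost without Sample 2 or Sample 3 (adjusted p = 0.0613 and 0.0609). Ppard, the most abundant PPAR of these muscles, was at 11.3, 14.1 and 12.5 FPKM in Nogo-/- muscles, against 12.7, 11.7 and 11.1 FPKM in Nogo+/+ muscles. Ppard, Ppara and Rxrb had log2 differences of 0.04, −0.16 and 0.02, and their groups overlapped. Summed over each family, the RXRs were at 101 to 106 FPKM in Nogo-/- and 114 to 116 FPKM in Nogo+/+ muscles. The PPARs were at 17.6 to 22.0 FPKM in Nogo-/- and 15.8 to 18.6 FPKM in Nogo+/+ muscles.

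Among 14 coactivators and corepressors of PPARγ, Nrip1 was higher, beside 1.89% of all genes, and the other 13 did not pass. The median log2 difference of the list was −0.05. Nrip1, which encodes the corepressor RIP140, was at 5.38, 8.03 and 5.63 FPKM in Nogo-/- muscles, against 2.79, 2.90 and 2.84 FPKM in Nogo+/+ muscles. Its log2 difference was 0.88 (standard error 0.13, adjusted p = 0.0078 from limma), and it passed under all 10 alternatives. Unlike Cebpb and Cebpd, it was highest in Sample 5. Tle3, Ep300, Ncoa1 and Ncoa3 came next by p, with log2 differences of 0.30, −0.25, −0.20 and 0.12 (adjusted p = 0.0832 to 0.365 from limma).

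Of 10 measured bZIP partners and antagonists of the C/EBPs, 2 were higher, beside 1.89% of all genes, and 8 did not pass. The median log2 difference of the list was −0.12. Trib1, a pseudokinase that brings the ubiquitin ligase COP1 to C/EBPα for its degradation, was at 9.89, 11.8 and 11.5 FPKM in Nogo-/- muscles, against 5.31, 4.46 and 5.28 FPKM in Nogo+/+ muscles. Its log2 difference was 0.96 (standard error 0.09, adjusted p = 0.0011 from limma), held under all 10 alternatives. Cop1 itself had a log2 difference of −0.22 (adjusted p = 0.370 from limma). Bhlhe40, a repressor of the circadian clock, was at 48.7, 58.1 and 43.4 FPKM in Nogo-/- muscles, against 29.9, 30.8 and 33.6 FPKM in Nogo+/+ muscles (log2 difference 0.60, adjusted p = 0.0103 from limma). It was lost without Sample 2 (adjusted p = 0.0601). Nfil3, a bZIP repressor, and Atf4, a partner of C/EBPγ, had log2 differences of −0.48 and −0.12 (adjusted p = 0.0716 and 0.114 from limma) with groups that did not overlap. Ddit3 (CHOP), which blocks C/EBPs from their sites and is named here after its values were seen, was at −0.12 (adjusted p = 0.704 from limma).

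Of 11 measured genes that oppose fat cell differentiation, Klf2 and Foxo1 were higher, beside 1.89% of all genes, and 9 did not pass. The median log2 difference of the list was −0.04. Klf2, a repressor of Pparg in cultured preadipocytes, was at 37.6, 16.2 and 31.4 FPKM in Nogo-/- muscles, against 8.86, 10.9 and 12.6 FPKM in Nogo+/+ muscles (log2 difference 1.20, adjusted p = 0.0448 from limma). Foxo1, a factor restrained by insulin, was at 3.68 to 5.54 FPKM in Nogo-/- muscles, against 2.54 to 2.69 FPKM in Nogo+/+ muscles (log2 difference 0.53, adjusted p = 0.0448 from limma). Both calls were close to the threshold. Klf2 was lost without the mean-variance trend (adjusted p = 0.0923) and without Sample 1, 2, 3, 4 or 6 (0.107 to 0.149). Foxo1 was lost without the trend (0.0721) and without any single one of Samples 1 to 6 (0.0514 to 0.157). Wnt5a and Hes1 came next by p, with log2 differences of −0.44 and −0.31 (adjusted p = 0.121 and 0.226 from limma) and overlap between the groups.

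Genes that are known to respond to the C/EBPs were taken in 3 lists. Of 16 measured genes of the mature fat cell, none passed in limma, 8 had an unadjusted p under 0.05 and 15 were higher in the Nogo-/- mean, with a median log2 difference of 0.51. Over all genes, 20.5% had an unadjusted p under 0.05 and 47.9% were higher in the Nogo-/- mean. This list holds all 8 measured fat cell markers given above, so it is not a readout separate from them. The nearest to the threshold was the lipid droplet protein Cidec, at 31.7, 18.6 and 13.1 FPKM in Nogo-/- muscles, against 5.83, 8.95 and 9.38 FPKM in Nogo+/+ muscles (log2 difference 1.18, adjusted p = 0.0525 from limma). It passed with a pseudocount of 0.1 (adjusted p = 0.0450), with a mean FPKM of at least 1 (0.0488) and without Sample 6 (0.0237). Without Sample 6, Plin1 and Lep, the gene of leptin, also passed (adjusted p = 0.0193 and 0.0050 from limma).

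Of 9 measured acute-phase genes, 3 were higher, beside 1.89% of all genes, and 6 did not pass. The median log2 difference of the list was 0.35. Mt1 and Mt2 encode metallothioneins, which bind metals and are induced by glucocorticoid. Mt2 was at 22.5, 15.3 and 34.4 FPKM in Nogo-/- muscles, against 8.50, 7.96 and 8.26 FPKM in Nogo+/+ muscles, and followed the order of Cebpb and Cebpd among the Nogo-/- mice. The log2 differences were 0.96 for Mt1, 1.32 for Mt2 and 0.59 for Orm1, the gene of a plasma glycoprotein (adjusted p = 0.0055, 0.0217 and 0.0279 from limma). Mt1 held under all 10 alternatives. Mt2 was lost without the mean-variance trend (adjusted p = 0.0534) and without Sample 1, 2, 3 or 4 (0.0642 to 0.0983) and Orm1 without Sample 1, 2, 3, 4 or 6 (0.0704 to 0.0980). The other genes of the list nearest to the threshold, Ccl2, Hp, Lbp and Lcn2, had adjusted p-values of 0.241 to 0.409 in limma.

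Among 5 measured genes that C/EBPs are known to act on in muscle, 3 were lower, none was higher and 2 did not pass. The median log2 difference of the list was −0.56. Over all genes, 2.75% were lower. Fbxo32 and Trim63 encode the ubiquitin ligases atrogin-1 and MuRF1 of muscle atrophy. Fbxo32 was at 21.7, 24.0 and 20.9 FPKM in Nogo-/- muscles, against 37.2, 39.9 and 41.0 FPKM in Nogo+/+ muscles. Trim63 was at 88.1, 86.3 and 87.7 FPKM in Nogo-/- muscles, against 123, 128 and 129 FPKM in Nogo+/+ muscles. Their log2 differences of −0.85 and −0.56 (adjusted p = 3.0e-04 and 2.3e-04 from limma) held under all 10 alternatives, so these genes were lower in the muscles in which Cebpb was higher. Myod1, the muscle-determining factor, was also lower (log2 difference −0.78, adjusted p = 0.0146 from limma), but not without Sample 1, 2, 3 or 4 (0.0504 to 0.0792). Mstn, the gene of myostatin, had a log2 difference of 0.29 (adjusted p = 0.108) and Ubr2 one of −0.0049 (adjusted p = 0.980).

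Signals that are known to induce Cebpb and Cebpd were represented by 11 genes. Of these, 3 were higher, beside 1.89% of all genes, and 8 did not pass, with a median log2 difference of 0.13. Of the 3, Tsc22d3 and Nr4a1 are described. Tsc22d3, a glucocorticoid-induced gene also called GILZ, was at 169, 153 and 225 FPKM in Nogo-/- muscles, against 87.7, 95.5 and 101 FPKM in Nogo+/+ muscles (log2 difference 0.88, adjusted p = 0.0080 from limma). It held under all 10 alternatives and had the order of Cebpb and Cebpd. Myod1 and Nfil3, with lower means in Nogo-/- muscles, and Acta1 had that order too. Nr4a1, an immediate-early nuclear receptor, had the same order, at 138, 88.3 and 174 FPKM in Nogo-/- muscles, against 49.3, 54.4 and 70.5 FPKM in Nogo+/+ muscles (log2 difference 1.10, adjusted p = 0.0342 from limma), although it was lost without the trend (0.0767) and without Sample 1, 2, 3, 4 or 6 (0.0572 to 0.133).

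The other genes of this list nearest to the threshold were Nr3c1, the glucocorticoid receptor, Il6st, the shared receptor of the interleukin 6 family, Socs3 and Fkbp5. Nr3c1 and Il6st were each at a log2 difference of −0.19 (adjusted p = 0.150 and 0.163 from limma). Socs3, a feedback inhibitor of STAT3, was at 5.90, 54.5 and 2.33 FPKM in Nogo-/- muscles, against 1.47, 1.77 and 2.06 FPKM in Nogo+/+ muscles (adjusted p = 0.241 from limma). Its very high mouse, Sample 5, was the one with the lowest Cebpb and Cebpd of the Nogo-/- mice. Fkbp5, a target of the glucocorticoid receptor, had a log2 difference of 0.26 and missed the threshold (adjusted p = 0.336, limma), with overlap between the groups.

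**Figure D5:**
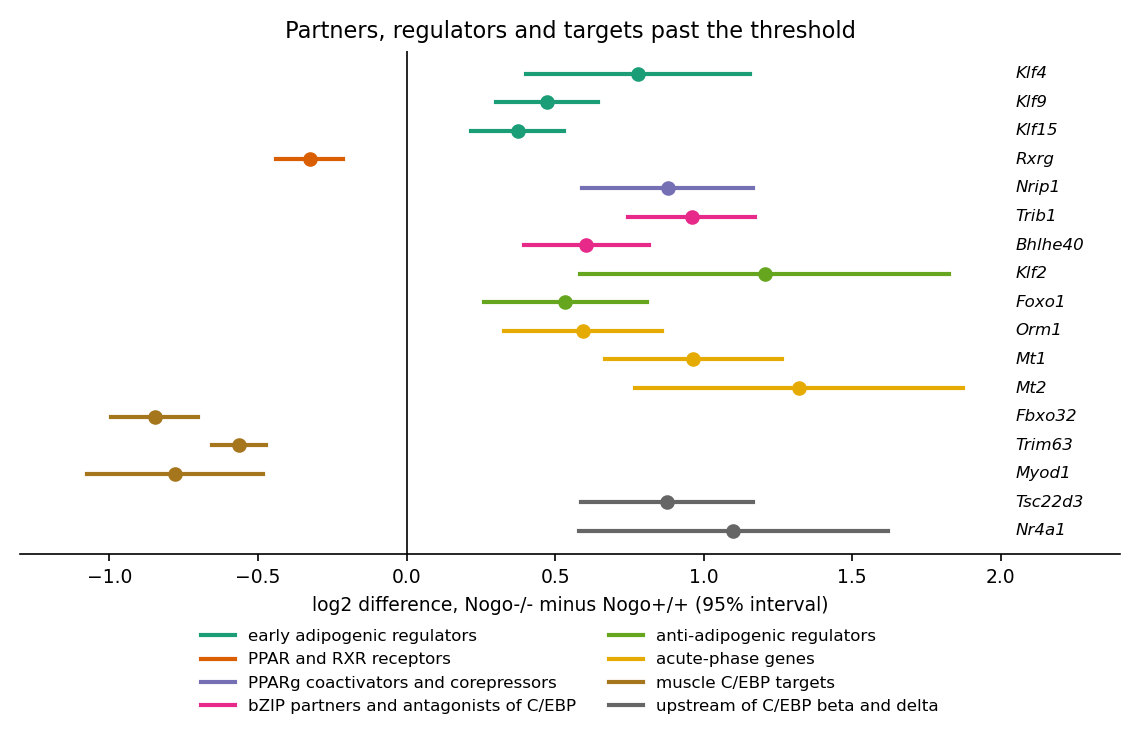
Log2 difference, Nogo-/- minus Nogo+/+, with its 95% interval from limma (n = 3 mice each), of 17 genes past the threshold in the lists of regulators, receptors, cofactors, partners and targets, the 7 members left out. Mt2 at 1.32 and Klf2 at 1.20 lie farthest right, and the muscle genes Fbxo32, Trim63 and Myod1, with the receptor Rxrg, lie left of 0.

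The genes with profiles most like those of the 4 factors were found by Pearson r over the 6 libraries on the normalized log2 scale, among 11507 other genes with a mean FPKM of at least 1. With 6 libraries in 2 groups, such an r mainly reflects the difference between the groups and is given as a description. For Cebpd they were Coq10b, Dhrs7, Per1, Id1 and Nbdy (r = 0.995 to 0.999). Per1, a repressor of the circadian clock that glucocorticoid and cAMP also induce, was at 30.5, 18.3 and 35.6 FPKM in Nogo-/- muscles, against 2.09, 2.02 and 1.92 FPKM in Nogo+/+ muscles, with the order of Cebpd among the Nogo-/- mice. For Cebpb they were Mxd4, Mt2, Mat2a, Adpgk and Cdr2 (r = 0.992 to 0.998), and for Cebpa they were Itgb3bp, Mccc1, Dcaf15, Socs2 and BC023105 (r = 0.986 to 0.990). For Pparg they were Cygb, Acad10, Plekha4, Lyve1 and Il11ra1 (r = 0.983 to 0.999). Between the members themselves, r was 0.97 for Cebpd with Cebpb, 0.81 for Cebpa with Pparg and 0.51 for Cebpb with Pparg. Cebpa was about as like the early factors, at 0.81 with Cebpd and 0.79 with Cebpb, and Cebpd with Pparg was at 0.64. Rxra ran opposite to each of the 4 factors, with r of −0.93 to −0.82.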

How the data were processed

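The data are FPKM of RNA from the gastrocnemius of 3 Nogo-/- and 3 Nogo+/+ mice. Per the study's methods and the submitters' notes on processing, the authors made stranded mRNA libraries, used CASAVA 1.8.2, cutadapt 1.4.2, STAR 2.6.1 on GRCm38.p6 and Cufflinks 2.2.1, and deposited FPKM per gene for genes reaching an FPKM of 1 in at least 1 library. FPKM are not counts, so no count test was run. The 6 other columns of the table, normalized log2 values by the authors, were not used. The groups of the columns were taken from the headings of the study's own table. Symbols and coordinates came from GENCODE M21, matched for 12342 of 12353 genes.

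Limma 3.58.1 was run in R 4.3.3 (lmFit, eBayes with a trend) on log2(FPKM + 1), pseudocount 1, after quantile normalization, with Benjamini-Hochberg adjustment over all genes, no covariates and a threshold of 0.05. Fold changes on this scale understate those of low genes. The fit was tested on simulated data. Alternatives were to set the pseudocount to 0.1, to keep genes with a mean FPKM of 1 or more, to leave out the quantile normalization or the trend, and to leave out each library. The depth was estimated from single-transcript genes, whose low FPKM lay within 0.1 of a whole fragment in 95.3% to 96.5% of values, against 20.0% by chance. Fragments are not independent molecules, and precision rests mainly on the 3 mice per group.

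The members and gene lists were chosen with earlier results of these data known. Named genes are the 7 members and the 5 genes most like Cebpd, Cebpb, Cebpa and Pparg. In each list the rule took every gene past the threshold, with up to 4 others, mostly those with the smallest p. Not among the genes of the table were Cebpe, Rfwd2 (present as Cop1), Gata3, Sox9, Acvr1c, Saa3, Cxcl1, Pax7 and Itgam. A gene that the rule takes in is not reported here but stays in the counts. Promoter windows came from RefSeq on GRCm38.p6 (5 of 7 members). Python 3.11.15, NumPy 2.4.6, pandas 2.3.3, SciPy 1.17.1 and matplotlib 3.10.9 were used.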

Additional observations from a re-analysis of the deposited data

How the results depend on the processing

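Cebpd kept its direction and its call under all 10 alternatives. Leaving out 1 library gave 188 to 434 changed genes, of which 83 to 196 were higher and 105 to 238 lower in Nogo-/- muscles. The log2 difference was 0.82 to 1.21 for Cebpb, 0.34 to 0.72 for Pparg and −0.24 to −0.19 for Rxra in these fits. Cebpb passed in 2 of the 6, Pparg in 1 and Rxra in none. Rxra also missed the threshold without quantile normalization, at −0.17 (adjusted p = 0.0931 from limma), and without the mean-variance trend, at −0.22 (adjusted p = 0.105 from limma). The cause was not tested, except that fits with 5 libraries have fewer samples. Cebpa, Cebpg and Cebpz passed under none of the alternatives. With 3 mice per group, an interval as wide as that of Cebpa or Pparg does not show that a gene was unchanged. No paired analysis was possible because the column names give no replicate numbers that tie them to the labels.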
